A study of Zea mays with 57 samples.

Results

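Transcripts of 3 maize genes of the carbon-fixing enzyme Rubisco were followed in shoots over the first 120 min after nitrogen-starved seedlings were given nitrogen or KCl. The genes are 2 for the Rubisco small subunit, Zm00001d052595 and Zm00001d004894, and 1 for Rubisco activase, Zm00001d048593. They were taken by gene ID from the 46335 genes counted, with earlier results of these data known, and all 3 passed the filter on low counts. These names came with the gene IDs and were not checked here against an annotation, because the gene name table used here follows another assembly and pairs none of the 3 IDs with a name.

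Rubisco joins carbon dioxide to ribulose bisphosphate in the chloroplast. It is built from large subunits, encoded by the plastid gene rbcL, and small subunits, encoded by a nuclear gene family, and activase is the chaperone that frees its active sites of bound sugar phosphates so that it can work. In maize, a C4 grass, Rubisco is made in bundle sheath cells, and in leaves generally it is the largest single store of protein nitrogen.

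All seedlings were of the inbred line B73 and 10 days old at harvest, and all of them, those of the start and the KCl groups included, had their endosperm removed and had been kept without nitrogen for 2 days. They grew under 16 h of light and 8 h of dark, and transfer took place 2 h after lights on. The start group was harvested at 0 min. The nitrogen groups were moved to a medium with 20 mM KNO3 and 20 mM NH4NO3, in which 10% of the nitrogen was 15N, and the KCl groups to 20 mM KCl; both were harvested after 5, 10, 15, 20 and 30 min and again after 45, 60, 90 and 120 min. The media also differ in chloride and in total salt, and these cannot be told apart from nitrogen. Each of the 19 groups had 3 replicates, each a pool of 3 seedlings, and whole shoots were sampled, so that fewer bundle sheath cells and less transcript per cell cannot be told apart.

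Messenger RNA was read at its 3′ end with unique molecular identifiers, and the deposited values are counts per gene. The 26 nitrogen libraries used for levels held a median of 2809128 counts (1654127 to 4603161), the 27 KCl libraries 2006288 (1057488 to 5684785) and the 3 start libraries 2831294 (2618258 to 3353328). Nitrogen 120 min replicate 3 held only 8560 counts. It entered the tests but no mean or SD. Levels are CPM, counts per 1000000 after TMM scaling. They compare 1 gene between libraries and not different genes with each other.

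The small subunit gene Zm00001d052595 lies on chromosome 4 of the AGPv4 assembly, from 194257728 to 194258862 on the minus strand, with 2 exons that cover 971 bases. The other small subunit gene, Zm00001d004894, lies on chromosome 2, from 147269761 to 147270804 on the plus strand, again with 2 exons, which cover 926 bases. The activase gene Zm00001d048593 lies on chromosome 4, from 921608 to 923738 on the plus strand, with 4 exons that cover 1758 bases. No other gene model of the count table overlaps any of them. Small subunit genes are closely alike in sequence within a plant, and the count header names no option for reads with several matches. Reads that match both small subunit genes may be missing from the counts or credited to the wrong gene, which was not checked.

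Gene models next to the 3 genes held fewer counts than the gene they flank. The 2 nearest models on each side of Zm00001d052595 held between 0 and 6 counts each, summed over 56 libraries. The nearest model to activase, Zm00001d048592, ends 611 bases before it and averaged 8.85 ± 2.12 CPM in nitrogen (SD, n = 26), 9.70 ± 2.999 in KCl (n = 27) and 9.95 ± 4.65 at the start (n = 3). Its means differed by less than their SDs. Beside Zm00001d004894, the first model with more than a few counts a library, Zm00001d004896, starts 262046 bases after it and held a median of 121.5 counts.

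Transcripts of both small subunit genes and of activase were less abundant in nitrogen than in KCl over the course. The small subunit gene Zm00001d052595 averaged 3298 ± 677 CPM in nitrogen (SD, n = 26) and 4897 ± 590 in KCl (n = 27). Its log2 change was -0.59 (SE 0.0542, adjusted p = 4.72e-13), or 0.667 of the KCl level. Zm00001d004894 averaged 1972 ± 197 CPM in nitrogen and 2443 ± 313 in KCl, and its log2 change was -0.31 (SE 0.0466, adjusted p = 1.11e-07), or 0.804 of the KCl level. Activase averaged 356 ± 60.9 CPM in nitrogen and 666 ± 133 in KCl, and its log2 change was -0.88 (SE 0.0657, adjusted p = 4.59e-16), or 0.542 of the KCl level. The 3 genes thus ranked activase, Zm00001d052595, Zm00001d004894 by size of change, and the 95% intervals of the changes, -1.02 to -0.75, -0.69 to -0.48 and -0.41 to -0.22, did not overlap. The differences between genes were not tested.

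All 3 members were called lower, against a background of 28.9% of the 18412 tested genes called lower and 58.8% called in either direction. A call by itself was therefore common. The median log2 change of the 3 genes was -0.59 and that of all tested genes 0.01. A lower value than that of activase was found in 4.11% of tested genes, than that of Zm00001d052595 in 9.09% and than that of Zm00001d004894 in 19.8%. Tested over the 9 times jointly, the media differed for Zm00001d052595 (adjusted p = 8.13e-10), Zm00001d004894 (adjusted p = 2.39e-05) and activase (adjusted p = 9.68e-13), beside 46.9% of tested genes.

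The overlap of single libraries followed the same order. For activase 25 of the 26 nitrogen libraries lay below the lowest KCl library, for Zm00001d052595 23 and for Zm00001d004894 10. These counts use the same libraries as the changes above. The share of all tested genes with such a separation was not computed. Depth differed between the media too. With the log2 library total as a covariate the average changes were -0.61, -0.34 and -0.89 for Zm00001d052595, Zm00001d004894 and activase. That fit included the library of 8560 counts, far below every other total, which can dominate the slope. The covariate was not tested without that library. The share of all counts that fell on these 3 genes was 0.548% ± 0.0882 in nitrogen (SD, n = 26), 0.789% ± 0.0765 in KCl (n = 27) and 0.603% ± 0.0803 at the start (n = 3).

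**Figure D1:**
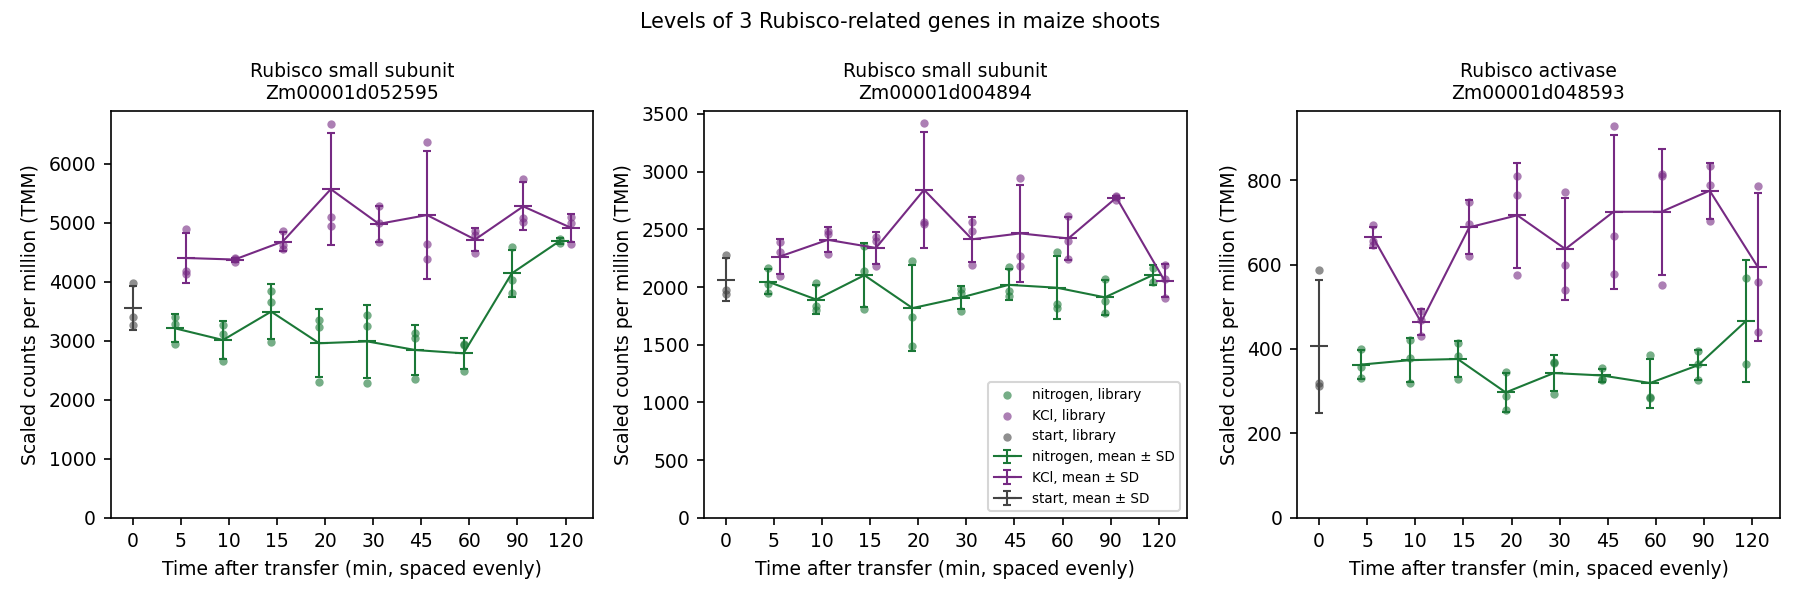
Scaled counts (CPM) of each gene against time after transfer, 1 panel per gene, with points for 56 libraries and lines and bars for group means ± SD (n = 3, but n = 2 for nitrogen at 120 min). KCl lies above nitrogen at most times, and the mean of Zm00001d052595 in nitrogen is 2789 CPM at 60 min and 4143 CPM at 90 min.

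In the first minutes Zm00001d052595 already stood lower in nitrogen. Its nitrogen libraries at 5 min, replicates 1 to 3 in this order as in all lists of libraries here, held 3279, 3409.7 and 2950.4 CPM, against 4193, 4133 and 4888 in KCl. The nitrogen libraries at 10 min held 2651, 3123 and 3270.5 CPM, against 4407, 4341 and 4389 in KCl. Those at 15 min held 3658, 3853 and 2977 CPM, against 4559, 4626 and 4865 in KCl. At each of these times every nitrogen library was below every KCl library. The change at 5 min was -0.45 on the log2 scale (adjusted p = 0.0422), a call lost without any 1 of 5 of the 6 libraries (all but nitrogen 5 min replicate 2; values from -0.52 to -0.39, adjusted p up to 0.202) and with limma-voom (adjusted p = 0.0572). Those at 10 and 15 min, -0.54 (adjusted p = 0.0962) and -0.42 (adjusted p = 0.0955), were not called. Leaving out 1 of the 6 libraries gave adjusted p from 0.0392 to 0.476 at 10 min. At 15 min it gave adjusted p from 0.0723 to 0.341, never under the threshold. The change at 10 min was called with the library total as a covariate (-0.67, adjusted p = 0.0307), with the first within-group component as a covariate (adjusted p = 0.0331) and without nitrogen 10 min replicate 3 (-0.60, adjusted p = 0.0392). Both covariates were taken over all 57 libraries, the library of 8560 counts included. The change at 15 min was called with library totals, with either covariate and without the small library (adjusted p from 0.029 to 0.0453).

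The difference for Zm00001d052595 was widest in the middle of the course. Libraries in nitrogen at 20 min held 3234, 3348 and 2298 CPM, against 4955, 5092 and 6669.6 in KCl, a log2 change of -0.91 (SE 0.163, adjusted p = 5.03e-05). Those at 30 min held 3249, 3441 and 2283 CPM, against 5279, 5001 and 4671 in KCl, a change of -0.74 (SE 0.162, adjusted p = 0.00186). Replicate 3 was the lowest nitrogen library at both times and replicate 3 in KCl the highest at 20 min; without nitrogen 30 min replicate 3 the change at 30 min was -0.58 (adjusted p = 0.0511). At 45 min nitrogen gave 3046, 2356 and 3132 CPM and KCl 4384, 6376 and 4640.4 CPM, a change of -0.85 (SE 0.163, adjusted p = 0.00016). At 60 min nitrogen gave 2488, 2941 and 2938 CPM and KCl 4863, 4495 and 4797 CPM, a change of -0.76 (SE 0.163, adjusted p = 0.000799). The groups did not overlap at any of these 4 times.

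Late in the course Zm00001d052595 stood higher in nitrogen than before. Its nitrogen libraries at 90 min held 4039, 4585 and 3806 CPM, each above all 3 libraries at 60 min, which held for 15.5% of tested genes. KCl libraries at 90 min held 5018, 5748 and 5075 CPM, and the change between the media was -0.35 (adjusted p = 0.195). At 120 min nitrogen gave 4726 and 4663 CPM in replicates 1 and 2 and KCl 5093, 5005 and 4646 CPM. The groups overlapped there, and the change of -0.24 (95% interval -0.58 to 0.09, adjusted p = 0.641) was not called. The small nitrogen library at 120 min held 45 counts of this gene, which is 0.526% of its counts but 2263 CPM after scaling, and without it the change was -0.08. The higher level at 90 min than at 60 min within nitrogen is read off the libraries, and no test of it was run.

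The other small subunit gene, Zm00001d004894, had smaller fitted changes than Zm00001d052595 at 8 of 9 times, with 90 min the exception, and the differences between the genes were not tested. Nitrogen libraries at 5 min held 2025, 2165 and 1949 CPM, against 2306, 2098 and 2389 in KCl. Nitrogen libraries at 10 min held 1834, 2037 and 1804 CPM, against 2462, 2284 and 2483 in KCl. Nitrogen libraries at 15 min held 2136, 2360.0 and 1812 CPM, against 2180.3, 2402 and 2435 in KCl. The groups overlapped at 5 and 15 min and were apart at 10 min, and none of the 3 changes, -0.15, -0.35 and -0.15, was called. At 20 min the libraries held 1740.2, 2223 and 1489.5 CPM in nitrogen and 2559.5, 2547 and 3423 in KCl, a log2 change of -0.65 (SE 0.139, adjusted p = 0.000491). The highest KCl library of the whole course, replicate 3 at 20 min, stands in this comparison.

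After 20 min the fitted changes of Zm00001d004894 were smaller, which was not tested between times. Leaving out 1 library took the change at 20 min to as little as -0.52, beside -0.54 at 90 min in the full fit. At 30 min nitrogen gave 1979.8, 1951 and 1794 CPM and KCl 2483, 2567 and 2191 CPM. At 45 min nitrogen gave 1964, 1919.9 and 2174 CPM and KCl 2182, 2945 and 2269 CPM. Nitrogen at 60 min gave 1855, 1822 and 2307 CPM and KCl 2620.1, 2241 and 2402 CPM. The groups were apart at 30 and 45 min, at 45 min by a few CPM, and overlapped at 60 min; the changes of -0.34, -0.29 and -0.28 were not called (adjusted p = 0.0904, 0.125 and 0.146). With library totals and in the authors' normalized table all 3 were called (adjusted p from 0.0171 to 0.0408). Without KCl 45 min replicate 2 the change at 45 min was -0.13. At 90 min nitrogen gave 1880.2, 2073 and 1779 CPM and KCl 2782, 2788 and 2757 CPM, a change of -0.54 (SE 0.139, adjusted p = 0.0133), a call lost without nitrogen 90 min replicate 3 (-0.50, adjusted p = 0.0815) and in the authors' normalized table (-0.25, adjusted p = 0.117). At 120 min nitrogen gave 2164 and 2045 CPM in replicates 1 and 2 and KCl 2187, 2071 and 1907 CPM. KCl stood at the nitrogen level there, and the change of -0.09 (adjusted p = 0.909) became 0.02 without the small library.

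Activase differed at 7 of 9 times. At 5 min its libraries held 358, 399.6 and 331 CPM in nitrogen and 693, 646 and 656 in KCl, a log2 change of -0.87 (SE 0.193, adjusted p = 0.00153). At 10 min they held 319, 379 and 422 CPM in nitrogen and 431, 491 and 468 in KCl, a change of -0.31 (adjusted p = 0.475) that was not called. All 3 KCl libraries at 10 min lay below those at 5 and 15 min, and nitrogen did not show such a dip. The share of all tested genes with this pattern was not counted. Between the media 18% of tested genes were called at 5 min, 0.277% at 10 min and 7.67% at 15 min. At 15 min activase libraries held 385, 415 and 329 CPM in nitrogen and 621, 695 and 748 in KCl, a change of -0.87 (SE 0.193, adjusted p = 0.00262). At 20 min they held 289, 346 and 256 CPM in nitrogen and 575, 809 and 765 in KCl, a change of -1.27 (SE 0.197, adjusted p = 6.47e-06). This was the most negative of all 27 changes, 9 for each of the 3 genes.

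From 30 to 90 min activase kept a wide gap between the media. Activase at 30 min was at 369, 366 and 294 CPM in nitrogen and 771, 599.5 and 540.0 in KCl, a log2 change of -0.90 (SE 0.196, adjusted p = 0.00171). Activase at 45 min was at 327, 329.6 and 355 CPM in nitrogen and 578, 929 and 669 in KCl, a change of -1.10 (SE 0.195, adjusted p = 6.41e-05). At 60 min it was at 287, 285 and 386 CPM in nitrogen and 809, 814 and 552 in KCl, a change of -1.19 (SE 0.197, adjusted p = 3.9e-05). No nitrogen library reached a KCl library at these times. At 90 min it was at 364, 395 and 326 CPM in nitrogen and 834, 788 and 703 in KCl, a change of -1.10 (SE 0.195, adjusted p = 0.000279). At 120 min it was at 569 and 365 CPM in nitrogen replicates 1 and 2 and 785, 439 and 558 in KCl. Libraries of both groups spread widely there and overlapped, and the change of -0.34 (95% interval -0.77 to 0.08, adjusted p = 0.576) was not called. It was -0.12 without KCl replicate 1 or without nitrogen replicate 2, and -0.68 without nitrogen replicate 1.

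**Figure D2:**
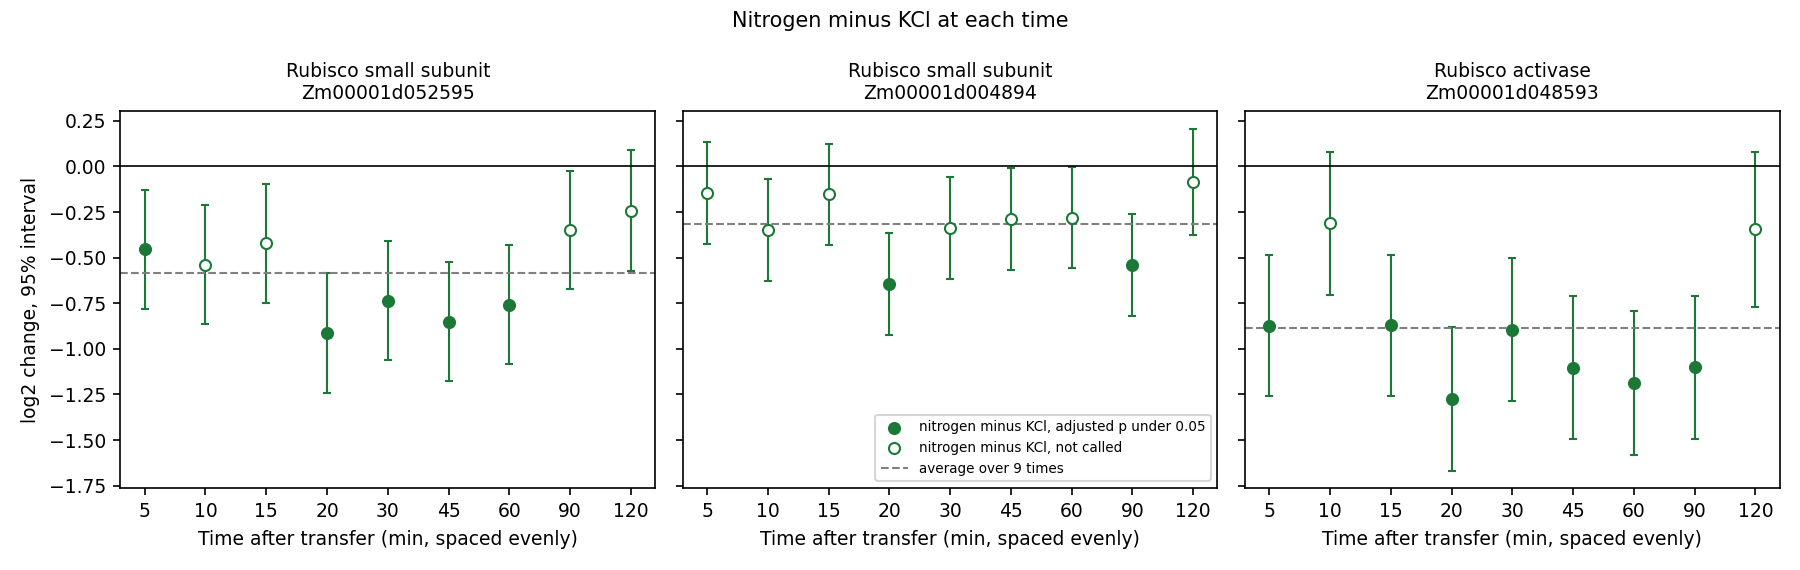
Log2 change between nitrogen and KCl at each time (points, with 95% intervals; filled where the adjusted p is under 0.05) for each gene, and the average over the 9 times (dashed). Of 27 points 14 are filled, all of them below 0 and none at 120 min.

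Of the 27 changes, 14 were called, all lower, at 5, 2 and 7 times for Zm00001d052595, Zm00001d004894 and activase. These calls depended on the setting: over 12 alternatives, 324 values in all, 18 that had missed the threshold passed it, 2 calls were lost, and the count ran from 13 to 18. Among all genes 13.2% of gene and time pairs were called, and 7.14% were called lower in nitrogen. All 3 genes had negative changes at 9 of 9 times, as had 10.8% of tested genes, except that at 120 min Zm00001d004894 turned positive without the small library, with library totals and in the authors' normalized table, and Zm00001d052595 in that table. Groups did not overlap at 8 of 9 times for Zm00001d052595, 5 for Zm00001d004894 and 8 for activase, against 15.7% of all gene and time pairs with nitrogen wholly below KCl. The share of genes called differed from time to time: 26.7% of tested genes were called at 20 min, 0.277% at 10 min and 1.07% at 120 min.

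A direct test of whether the difference changed between 5 to 30 min and 45 to 120 min passed for none of the 3 genes, beside 1.41% of tested genes. The late minus early difference of the nitrogen effect was 0.06 for Zm00001d052595 (95% interval -0.16 to 0.28), 0.03 for Zm00001d004894 (-0.16 to 0.22) and -0.09 for activase (-0.35 to 0.18). Each of these intervals includes 0. Within KCl alone the late minus early changes were 0.07, -0.02 and 0.16, and within nitrogen 0.13, 0.01 and 0.07, none of them called (adjusted p from 0.361 to 0.959; background 6.17% and 6.4%). These comparisons average 60 min with 90 and 120 min, between which Zm00001d052595 stood at different levels in nitrogen. The unadjusted p of the late minus early nitrogen effect was above 0.05 for all 3 genes, and DESeq2 called none of them either.

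The start libraries place both media. Zm00001d052595 was at 3274, 3407 and 3974 CPM in the 3 start libraries. Zm00001d004894 was at 1939.8, 1977 and 2279 CPM there. Activase was at 312, 319 and 588 CPM. Replicate 3 was the highest for each gene and for activase lay far above the others, within the range of the KCl libraries.

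Against these libraries KCl was higher for Zm00001d052595, by 0.46 on the log2 scale averaged over the 9 times (SE 0.125, adjusted p = 0.0119), and for activase, by 0.70 (SE 0.152, adjusted p = 0.00164), whereas 0.24 for Zm00001d004894 (SE 0.106, adjusted p = 0.141) did not pass. Of all tested genes 11.2% were called in this comparison, 4.8% higher. The 2 calls rest on 3 start libraries. Without start replicate 1 they were lost, at 0.41 (adjusted p = 0.150) and 0.54 (adjusted p = 0.0934), and without start replicate 2 they were lost at 0.44 (adjusted p = 0.0953) and 0.56 (adjusted p = 0.0672). Without start replicate 3 they stood at 0.56 (adjusted p = 0.0103) and 1.08 (adjusted p = 2.67e-05). Transfer to fresh medium and the passing morning also separate the KCl groups from the start and cannot be told apart from KCl itself.

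Nitrogen was not distinguished from the start. Averaged over the 9 times the log2 changes were -0.13 for Zm00001d052595 (95% interval -0.36 to 0.11), -0.08 for Zm00001d004894 (-0.28 to 0.13) and -0.19 for activase (-0.47 to 0.10), with adjusted p = 0.716, 0.808 and 0.635. Without start replicate 3 the value for activase was 0.19 and that for Zm00001d004894 0.00397, so that neither sign was stable. In this comparison 0.521% of tested genes were called. At single times 0 of 27 nitrogen values were called with edgeR or DESeq2, with 2 at an unadjusted p under 0.05, beside 1.05% of all gene and time pairs called. The 2 comparisons share the start libraries, so a high or low start level moves both in the same direction.

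At single times 11 of 27 KCl values were called higher than the start and none lower, beside 2.58% of all gene and time pairs called higher. For Zm00001d052595 these were the values at 20 min (0.65), 45 min (0.53), 90 min (0.57) and 120 min (0.47). For Zm00001d004894 only the value at 20 min was called, at 0.46 (adjusted p = 0.0191). For activase 6 times were called, from 0.65 at 30 min to 0.93 at 90 min. The activase calls at 20 and 90 min held without any 1 of their 6 libraries; the other 9 were lost without at least 1 library, that of Zm00001d052595 at 20 min without KCl 20 min replicate 3 (adjusted p = 0.0954) and the rest without start replicate 1 or start replicate 2, among others, which leave 3 calls each.

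**Figure D3:**
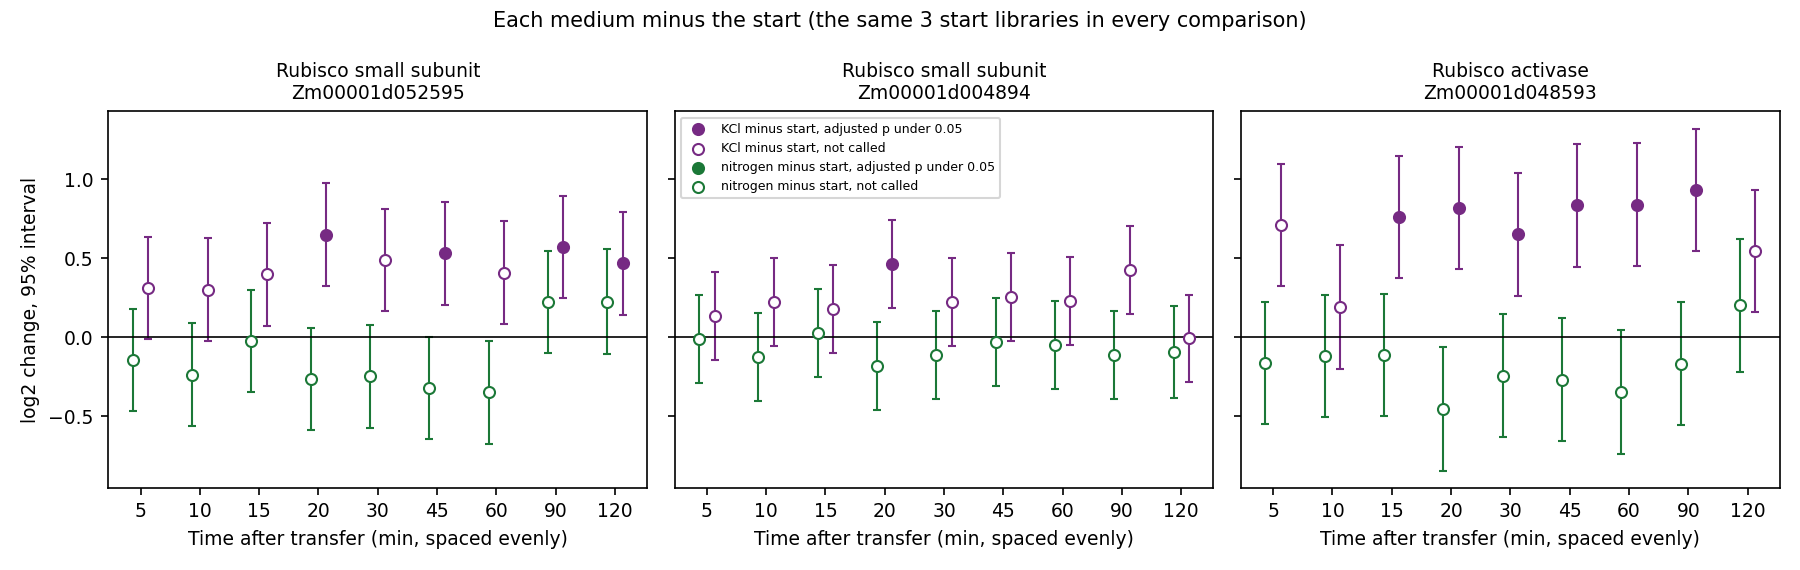
Log2 change from the start in KCl and in nitrogen at each time, with 95% intervals (filled where the adjusted p is under 0.05). KCl values of Zm00001d052595 and activase lie above 0 throughout, with 4 and 6 filled points, and no nitrogen point is filled.

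The 19 groups were ordered by mean level, and each was compared only with its neighbour. With so few libraries a group, this cannot tell a gradient from steps. For Zm00001d052595 the highest group was KCl at 20 min (5572 ± 953 CPM, SD, n = 3) and the lowest nitrogen at 60 min (2789 ± 261). All 9 KCl groups and nitrogen at 120 and 90 min stood above the start, which was in place 12, and the other 7 nitrogen groups below it. Of 18 pairs of neighbouring groups only 1, nitrogen at 90 min (4143 ± 399.7) and the start (3551 ± 372), differed by more than their pooled SD. For Zm00001d004894 the order ran from KCl at 20 min (2843 ± 502) to nitrogen at 20 min (1818 ± 373), with the start in place 11, and KCl at 120 min (2055 ± 141) in place 12, below nitrogen at 120 min. Neighbours differed beyond their pooled SD in 2 of 18 pairs, below KCl at 90 min (2776 ± 16.6) and below KCl at 5 min (2264 ± 149.6). For activase the order ran from KCl at 90 min (775 ± 66.6) to nitrogen at 20 min (297 ± 45.3), with the start in place 11 and KCl at 10 min (463 ± 30.3) just above it, and 0 of 18 neighbouring pairs differed beyond their pooled SD.

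The ratio between the 2 small subunit genes was lower in nitrogen than in KCl at most times. Within a library the log2 ratio of counts of Zm00001d052595 over Zm00001d004894 averaged 0.72 ± 0.25 in nitrogen (SD, n = 26), 1.00 ± 0.12 in KCl (n = 27) and 0.78 ± 0.02 at the start (n = 3). Such a ratio needs no scaling between libraries, and its absolute value depends on how reads that match both genes were counted. In nitrogen it was 0.65 ± 0.05 at 5 min, 0.49 ± 0.17 at 45 min and 0.49 ± 0.18 at 60 min, and stood at 1.12 ± 0.03 at 90 min and 1.16 ± 0.04 at 120 min (n = 2 at 120 min, n = 3 otherwise). In KCl it was 0.96 ± 0.09, 1.05 ± 0.06, 0.96 ± 0.06, 0.93 ± 0.10 and 1.26 ± 0.03 at the same times. Nitrogen was thus below KCl at 8 of 9 times, with 90 min the exception, where all 3 nitrogen libraries were above all 3 KCl libraries. The ratio was not tested.

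Activase counts were also lower relative to both small subunit genes in nitrogen at most times, again with no test. Its log2 ratio to Zm00001d052595 averaged -3.20 ± 0.21 in nitrogen and -2.90 ± 0.26 in KCl, and was lower in nitrogen at 8 of 9 times. Its ratio to Zm00001d004894 averaged -2.48 ± 0.17 in nitrogen and -1.89 ± 0.27 in KCl, again lower at 8 of 9 times. The exception was 10 min for both, when the activase level in KCl dipped. The ratio to Zm00001d052595 was lowest in nitrogen at 90 min, at -3.52 ± 0.04 (SD, n = 3) against -2.77 ± 0.16 in KCl.

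**Figure D4:**
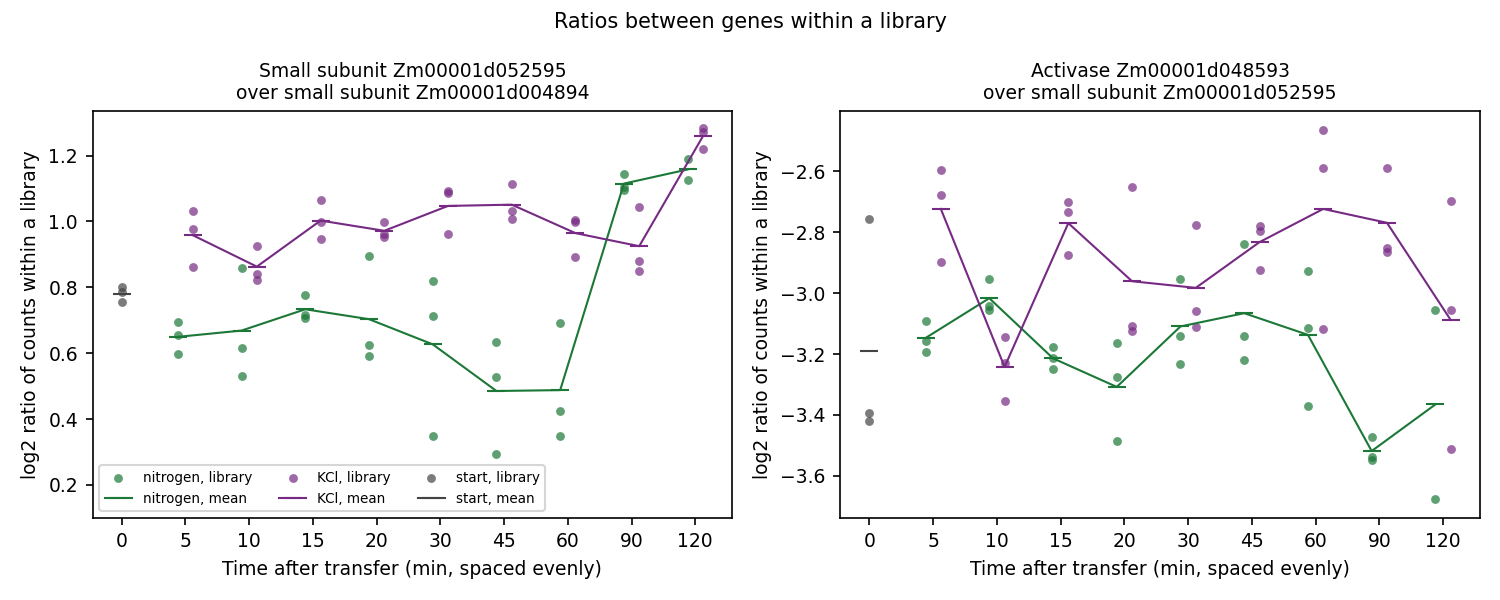
Log2 ratio of counts within a library against time, for the small subunit genes (left) and for activase over Zm00001d052595 (right), with points for libraries and lines for group means. The left ratio in nitrogen lies below KCl up to 60 min and above it at 90 min, at 1.12 against 0.93.

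The spread between libraries of 1 group exceeded counting error. The within-group SD on the log2 scale was 0.18 for Zm00001d052595, 0.15 for Zm00001d004894 and 0.26 for activase. Counting error at counts of 4222 to 30417, 2519 to 15609 and 441 to 3995 a library gives 0.01, 0.02 and 0.04. Over 15451 genes of at least 5 CPM the median SD was 0.25. Of these genes 82.2% had a larger SD than Zm00001d052595, 93.2% than Zm00001d004894 and 48.1% than activase.

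The 3 genes deviated from their group means together. Over 56 libraries the deviations of the 2 small subunit genes correlated with Pearson's r = 0.78 and Spearman's rho = 0.78 (permutation p = 1e-05 for each, the smallest that 100000 permutations can give, adjusted 3e-05 over 3 pairs). Those of Zm00001d052595 and activase correlated with r = 0.56 (p = 3e-05, adjusted 4.5e-05) and rho = 0.60 (p = 2e-05, adjusted 3e-05). Those of Zm00001d004894 and activase correlated with r = 0.61 (p = 8e-05, adjusted 8e-05) and rho = 0.63 (p = 5e-05, adjusted 5e-05). Without the 2 libraries farthest from the median of the first gene, r was 0.77, 0.55 and 0.62. The values of a library share its scaling, and under RLE size factors r was 0.78, 0.59 and 0.65. Depth moved little with them: the deviations correlated with the log2 library total at r = 0.04, 0.000266 and 0.13. The first principal component of within-group deviations over all tested genes was here taken over these 56 libraries. The absolute r of the deviations with it was 0.54 for Zm00001d052595, 0.05 for Zm00001d004894 and 0.38 for activase. The signs of these correlations were not kept, so whether the genes moved along that axis in the same direction is not known here. The part of that shared axis in these correlations was not tested.

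**Figure D5:**
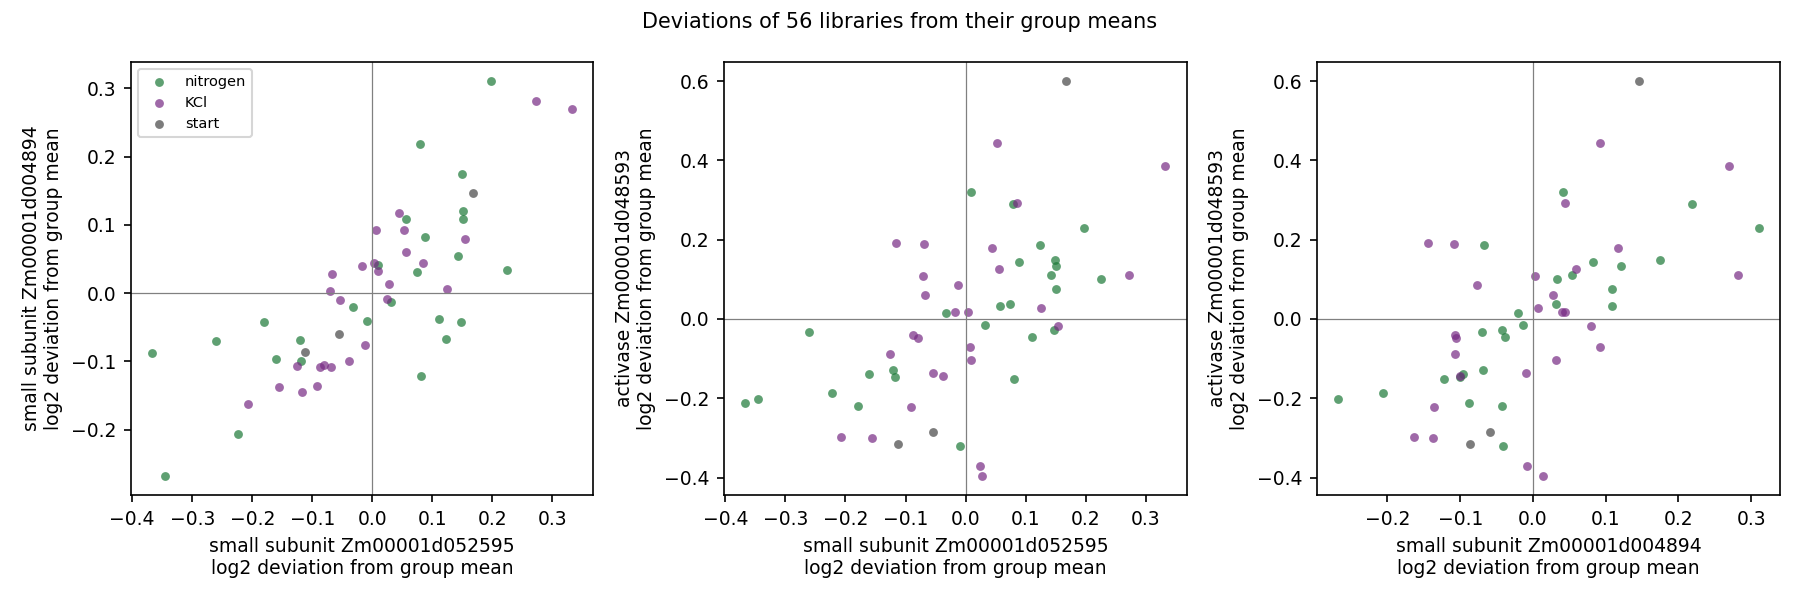
Deviations of log2 CPM from the group mean for each pair of genes, 1 point for each of 56 libraries, coloured by medium. Points of both media run along a rising diagonal, tightest for the 2 small subunit genes (r = 0.78).

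Across the 19 group means, the profiles of the 3 genes were alike but other genes were more so. Zm00001d052595 and activase correlated at r = 0.90, Zm00001d004894 and activase at 0.87, and the 2 small subunit genes at 0.81. All profiles share the libraries and the difference between the media. Among 15451 genes of at least 5 CPM, ordered by likeness to Zm00001d052595, activase was in place 693 and Zm00001d004894 in place 1756. By likeness to Zm00001d004894, activase was in place 116 and Zm00001d052595 in place 401. By likeness to activase, Zm00001d052595 was in place 281 and Zm00001d004894 in place 640. The 3 genes most like Zm00001d052595 were Zm00001d014564 on chromosome 5 (r = 0.99), Zm00001d011256 on chromosome 8 (0.99) and Zm00001d034283 on chromosome 1 (0.98). Those most like Zm00001d004894 were Zm00001d046555 on chromosome 9 (0.96), Zm00001d031071 on chromosome 1 (0.94) and Zm00001d038163 on chromosome 6 (0.94). Those most like activase were Zm00001d015705 on chromosome 5 (0.97), Zm00001d034808 on chromosome 1 (0.97) and Zm00001d030127 on chromosome 1 (0.97). Taken over single libraries, the 3 most alike included 2 of these 3 genes for Zm00001d052595, 0 for Zm00001d004894 and 2 for activase.

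The large subunit could not be followed. The plastid model GRMZM5G815453, from 56824 to 58323 of the plastid genome, matches rbcL by position and held 32 counts in all, in 25 of 57 libraries. The libraries were primed on poly(A), which plastid transcripts carry only in part, and the model was not tested.

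In the authors' deposited table of regulator and target pairs, Zm00001d052595 is listed as a target of 203 regulators, and the other 2 genes are not listed. The authors' deposited table gives its highest weights to Zm00001d017778 (82.3), Zm00001d001858 (66.6) and Zm00001d042582 (62.5), with a median weight of 5.93 over its 203 regulators. Of the 2732 targets in the authors' deposited table, 3 have a higher top weight than Zm00001d052595. The scale of these weights is not known here.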

How the data were processed

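The authors deposited whole-number counts per gene for 57 shoot libraries, made per the submitters' processing notes with STAR 2.7.6a, featureCounts 2.0.1, fastp 0.21.0 and UMI-tools 1.1.1; per the file headers, counting was by featureCounts 1.5.1 on AGPv4 annotation release 37, with no strand option. The table also held 2 columns that match no labelled sample, which were not used. The authors' deposited quantile-normalized values (18370 genes, 55 libraries) are treated as a score, since they are rounded and share 1 total, 2522105. The weights of the authors' deposited network table are a score as well.

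In R 4.3.3 with edgeR 4.0.16, counts were scaled by TMM, filtered with filterByExpr on the 19 groups (18412 genes kept) and tested by the quasi-likelihood F test on 19 group means over all 57 libraries (38 residual degrees of freedom). Adjusted p-values are two-sided Benjamini-Hochberg values over all genes tested, with a threshold of 0.05, and each SE was derived from F and the log2 change. Levels leave out the library under 100000 counts. Correlations of deviations used 100000 permutations within groups. DESeq2 1.42.0 and limma 3.58.1 served as alternatives. For each gene the 3 genes of at least 5 CPM with the highest Pearson correlation over 19 group means are named. The average, late minus early and 5 min contrasts between the media were run on simulated counts with known changes. Those counts were drawn independently for each gene and library, so they do not cover deviations shared between genes within a group. P-values measure the spread between pools of seedlings, and counting intervals cover counting error only. The 3 genes, the lists and the tests were chosen with earlier results of these data known. No sequence is printed, and no marker list of other cell types was applied, since the nuclear IDs are not paired with names in the tables used here.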

Additional observations from a re-analysis of the deposited data

How the results depend on the processing

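The average difference between nitrogen and KCl kept its direction and its call for all 3 genes under the 12 alternatives and without any 1 of 54 libraries. Over the alternatives it ran from -0.62 to -0.54 for Zm00001d052595, -0.35 to -0.27 for Zm00001d004894 and -0.97 to -0.88 for activase. The joint test over 9 times kept its calls likewise. Same-numbered libraries of the 2 media showed little shared deviation: of 26 pairs 2 had deviations that correlated above 0.1 (range -0.15 to 0.21). Whether such pools were grown or handled together is not known here. With the replicate block the average changes were -0.59, -0.32 and -0.88. The block ended 2 single-time calls, those in KCl minus start of Zm00001d052595 at 120 min (0.47, adjusted p = 0.0525) and of activase at 30 min (0.65, adjusted p = 0.0565).

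KCl minus start depended on the processing. In the authors' normalized table it was 0.30 for Zm00001d052595 (adjusted p = 0.137), which left 1 of 3 genes called and 7 single-time calls instead of 11. Leaving out 1 library gave 0.41 to 0.56 for Zm00001d052595 and 0.54 to 1.08 for activase, with 0 to 2 genes and 3 to 15 single-time calls. An alternative chosen after seeing the data, without the small library and with the first within-group component as a covariate, gave 17 single-time calls and called the late minus early change of Zm00001d052595 in nitrogen (0.18, adjusted p = 0.0379), 1 gene where there were 0. For nitrogen minus start at single times, 1 call appeared with library totals and 1 in the authors' table.

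Values near 0 changed sign. The change of Zm00001d004894 at 120 min between the media was 0.0599 with library totals, 0.0776 in the authors' table, 0.0183 without the small library and 0.0182 also with the component (-0.22 to 0.0183 over libraries left out), and that of Zm00001d052595 was 0.0350 in the authors' table. KCl at 120 min minus start for Zm00001d004894 was 0.0254 with RLE size factors, 0.0253 with DESeq2, 0.0151 with a mean of at least 5 CPM, 0.00674 with the library total as a covariate, 0.000315 without the small library and 0.000716 also with the component (-0.0501 to 0.0844 over libraries left out). Its late minus early nitrogen effect was -0.0231 with the component, its late minus early change in KCl 0.0126 with the library total (-0.0614 to 0.00647 over libraries) and that in nitrogen -0.00233 with limma-voom and -0.0413 with the component (-0.0204 to 0.0449). For activase the last ranged from -0.00788 to 0.135. Nitrogen minus start ranged from -0.13 to 0.00397 for Zm00001d004894 and from -0.35 to 0.19 for activase. The cause of these changes was not tested.

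Counts over all genes moved by more than 1.5 times in some alternatives. DESeq2 called 123 genes for late minus early against 260, 947 for KCl minus start against 2054, 46 for nitrogen minus start against 96, and 606 and 559 for late minus early in KCl and in nitrogen against 1136 and 1179. Without the filter late minus early gave 634 and nitrogen minus start 587. With the component these were 2192 and 2524, and late minus early in nitrogen 2241. Without the small library as well they were 490, 637 and 1862.

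The spread between libraries exceeded counting error for all 3 genes, and the single times rest on 3 libraries a group.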
